A study of Mus musculus with 6 samples.

Results

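The genes of laminin chains, collagen chains and their basement membrane partners were followed in astrocytes isolated from mouse brain after quinpirole administration. Members were the protein-coding genes whose symbol begins with Lama, Lamb or Lamc and a number or names a collagen chain, together with Nid1, Nid2, Hspg2, Agrn, Fn1, Sparc and Dag1. The rule took 62 of the 16832 protein-coding genes in the table, without using their levels. Among them, Col4a3bp shares only its first letters with the collagens and encodes the ceramide transfer protein, so 61 matrix genes were described. Of these, 42 had a mean of at least 1 FPKM (fragments counted per kilobase of transcript and scaled to the depth of the library) over the 6 libraries and were tested, and 19 fell under that level.

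The cells came from C57BL/6 wild-type mice 3 months old, and were captured from brain with microbeads against ACSA-2, a surface antigen of astrocytes encoded by Atp1b2. Mock libraries stood against libraries from mice given quinpirole, an agonist of the dopamine receptor DRD2, with 3 libraries in each group and no other difference in genotype, strain or age. The study asked which transcripts change in astrocytes when DRD2 is stimulated. Its sources give the control as saline, and the dose for these mice and the animals behind each library were not given in the sources used here, so p-values measure the spread between these libraries.

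Basement membranes are thin sheets of matrix that line cells. In the brain, astrocyte endfeet rest on such a sheet around every blood vessel and beneath the meninges. Laminins, heterotrimers of an alpha, a beta and a gamma chain, polymerize on the cell surface and bind dystroglycan and integrins. Type IV collagen forms a second network, nidogens and the proteoglycans perlecan and agrin connect the networks, and dystroglycan anchors them to the cytoskeleton and helps hold water channels at the endfeet.

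The stretch upstream of the gene start is shown for the 4 members whose fall passed the threshold both before and after the correction for gene length and GC content described further on. Sequences are from RefSeq on GRCm38.p6, 5′ to 3′ on the strand of the gene, and end at the base before the earliest annotated start. Capitals mark GGGCGG, the core of the GC box, and CCAAT, on either strand. The stretches are chr4:137468553-137468768 on the plus strand for Hspg2, chr2:180225860-180226109 on the minus strand for Lama5, chr4:156197489-156197738 on the minus strand for Agrn and chrX:141475169-141475384 on the plus strand for Col4a5.
Hspg2: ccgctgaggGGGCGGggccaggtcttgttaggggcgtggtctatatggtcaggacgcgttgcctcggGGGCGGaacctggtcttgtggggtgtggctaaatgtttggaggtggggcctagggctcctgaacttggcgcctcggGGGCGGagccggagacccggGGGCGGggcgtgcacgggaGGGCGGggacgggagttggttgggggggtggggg
Lama5: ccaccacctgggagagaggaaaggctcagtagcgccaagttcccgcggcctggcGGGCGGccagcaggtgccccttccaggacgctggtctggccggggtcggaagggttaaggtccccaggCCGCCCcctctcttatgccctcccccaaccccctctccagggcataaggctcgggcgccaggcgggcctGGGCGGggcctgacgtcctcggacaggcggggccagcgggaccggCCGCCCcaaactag
Agrn: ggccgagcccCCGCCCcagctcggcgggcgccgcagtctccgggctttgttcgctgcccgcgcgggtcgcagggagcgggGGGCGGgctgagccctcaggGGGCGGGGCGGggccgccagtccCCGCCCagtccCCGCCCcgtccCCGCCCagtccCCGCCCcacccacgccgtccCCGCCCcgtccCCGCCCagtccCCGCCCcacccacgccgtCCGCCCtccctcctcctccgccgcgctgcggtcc
Col4a5: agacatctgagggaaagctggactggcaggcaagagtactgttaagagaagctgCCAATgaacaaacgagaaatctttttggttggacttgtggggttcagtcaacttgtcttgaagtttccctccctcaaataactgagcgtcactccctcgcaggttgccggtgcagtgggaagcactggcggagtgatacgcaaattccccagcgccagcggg
The printed stretch held GGGCGG at 5 positions for Hspg2, 4 for Lama5 and 12 for Agrn. That of Col4a5 held CCAAT and no GGGCGG, but a promoter window of Col4a5, of the kind described next, did hold GGGCGG.

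Promoter windows from 250 bases before to 50 bases after the start were found for 28 of the 42 tested members. Searched on both strands, GGGCGG was in 26 of their 32 windows, from 23 members, beside 35.7% of all 32851 windows of the table. Among the 23 were members whose change did not pass the threshold, such as Nid1, Lamb1, Col8a1 and Dag1. CCAAT was in 12 of the 32 windows, from 11 members (37.4% of all windows), and TATAAA in 1, from Col3a1 (13.6%). TGACNNNGC, the core of the antioxidant response element, was in 3, from Col4a2, Col6a2 and Col9a2 (12.4%). A match describes the letters in the window and is not evidence of binding.

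Of the 42 tested members, 13 fell after quinpirole and 0 rose, by limma on log2(FPKM + 1) with Benjamini-Hochberg adjustment over all 12255 tested genes and a threshold of 0.05. That is 31.0% of the members, where 5.18% of all tested genes fell and 5.74% rose. The genes that fell were Hspg2, Lama5, Agrn, Lama2, Lamc1, Lamb2, Col4a4, Col4a5, Col1a1, Col5a1, Col5a3, Col11a1 and Col12a1. The median log2 fold change (quinpirole minus mock) of the tested members was -0.20, and that of all tested genes was 0.02. Every quinpirole library was below every mock library in 26 members, against 16.9% of all tested genes, and above every mock library in 2 members, against 20% of all tested genes. Another 9 members had an adjusted p between 0.05 and 0.07, among them Fn1, Col4a1, Col4a6 and Nid2. The share of all tested genes in that band was not computed, so the 9 are not read as a result. The limma fit gave an unadjusted p under 0.05 to 25 members and to 3839 of all 12255 tested genes. In such bulk samples, fewer cells of a type and less RNA per cell cannot be told apart. With 3 libraries in each group the count rested on single libraries, as did the count over all tested genes. It was 0 without Mock 1, without Mock 2 or without Quinpirole 1, where 6, 3 and 11 of all 12255 tested genes passed. In these runs limma still gave an unadjusted p under 0.05 to 23, 24 and 24 members. Over all tested genes 3056, 2891 and 3374 had one. The count of members was 1 without Quinpirole 2, 3 without Quinpirole 3 and 13 without Mock 3. There 25, 210 and 1215 of all tested genes passed.

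**Figure D1:**
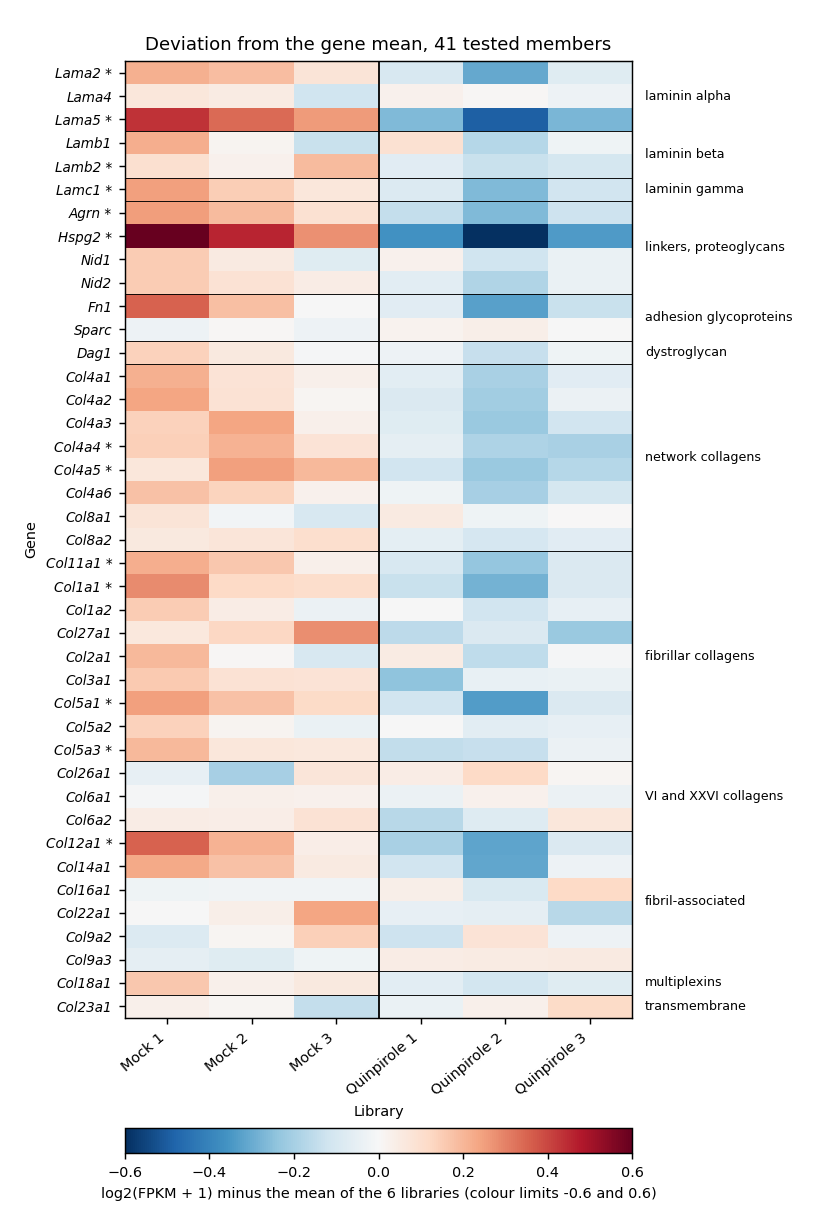
Log2(FPKM + 1) less its average over the 6 libraries, for 41 of the 42 tested members (rows, grouped by role) in each library (columns), with colour limits of -0.6 and 0.6 and an asterisk at the 13 genes that fell. Most rows are red in the mock columns and blue in the quinpirole columns, with Hspg2 and Lama5 the most intense, and Mock 1 and Quinpirole 2 at the ends of the range for many genes.

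Mock 1 was the highest of the 6 libraries for 26 of the 42 tested members and Quinpirole 2 the lowest for 27. Over all tested genes these libraries held those places for 18.1% and 22.6% of genes.

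The heparan sulfate proteoglycans and the nidogens, which link the laminin and collagen networks, held the deepest fall. Hspg2 encodes perlecan, the large proteoglycan of basement membranes, and lies at chr4:137468769-137570630 (GENCODE M21 on GRCm38, plus strand). It was at 49.5, 43.0 and 37.8 FPKM in the mock libraries and at 23.9, 19.0 and 24.3 in the quinpirole libraries. The lowest mock library was thus well above the highest quinpirole library. Its mean went from 43.4 ± 5.88 to 22.4 ± 2.95 FPKM (SD, n = 3), or 51.6% of the mock level, with a log2 fold change of -0.93 ± 0.12 (SE, limma adjusted p = 0.0225), the 11th lowest of all tested genes.

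Agrn encodes agrin, a proteoglycan that binds laminin and dystroglycan and is enriched at perivascular endfeet, and lies at chr4:156165290-156197488. It was at 91.5, 87.7 and 82.0 FPKM in the mock libraries and at 69.4, 63.8 and 70.4 in the quinpirole libraries. These values did not overlap, and the log2 fold change was -0.35 ± 0.06 (SE, adjusted p = 0.0236). Nid2, a nidogen, was at 46.7, 44.6 and 43.3 FPKM in mock and 40.1, 36.9 and 40.8 in quinpirole libraries. The groups were apart but the change of -0.19 ± 0.05 did not pass the threshold (adjusted p = 0.0539). Nid1, the other nidogen, was at 29.7, 27.7 and 25.3 FPKM against 27.1, 24.4 and 25.9, with overlapping groups and an adjusted p of 0.401.

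Among the laminin alpha chains, which carry the receptor-binding domains, Lama5 changed most. It lies at chr2:180176373-180225859 on the minus strand and was at 63.6, 59.5 and 56.0 FPKM in the mock libraries and at 38.8, 33.0 and 38.5 in the quinpirole libraries. Every quinpirole value was far below every mock value, the mean was 61.6% of the mock level, and the log2 fold change was -0.69 ± 0.07 (SE, adjusted p = 0.0215), the 33rd lowest of all tested genes. Lama2, the alpha chain of astrocyte and muscle basement membranes, was at 9.41, 9.21 and 8.48 FPKM in mock and 7.39, 6.25 and 7.53 in quinpirole libraries. It too fell, by 0.32 ± 0.08 on the log2 scale (adjusted p = 0.0449), with groups apart. Lama4, the alpha chain typical of vessels, was at 3.61, 3.56 and 3.05 FPKM in mock and 3.49, 3.42 and 3.31 in quinpirole libraries, with overlapping groups and a log2 fold change of 0.00 ± 0.07 (SE, adjusted p = 0.993). Lama1 and Lama3 were under the tested level, with means of at most 0.321 FPKM in either group.

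The beta and gamma chains complete the trimer. Lamb2, the most abundant laminin transcript here, was at 184.9, 176.3 and 197.2 FPKM in mock and 164.7, 157.4 and 160.9 in quinpirole libraries. The groups did not overlap and the log2 fold change was -0.21 ± 0.05 (SE, adjusted p = 0.0397). Lamb1, the other beta chain tested, was at 5.36, 4.53 and 3.98 FPKM in mock and 4.82, 3.86 and 4.35 in quinpirole libraries, and these values overlapped (adjusted p = 0.693). Lamc1, the gamma chain of most laminins, was at 93.1, 87.0 and 82.1 FPKM in mock and 73.9, 65.0 and 72.4 in quinpirole libraries. It fell by 0.31 ± 0.06 on the log2 scale (SE, adjusted p = 0.0322) with groups apart.

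Dag1 encodes dystroglycan, the laminin, agrin and perlecan receptor of the endfoot. It was at 192.0, 181.8 and 173.5 FPKM in mock and 171.0, 158.5 and 171.4 in quinpirole libraries. The values did not overlap, but the log2 fold change of -0.13 ± 0.05 did not pass the threshold (SE, adjusted p = 0.137). Fn1 encodes fibronectin, an adhesion glycoprotein, and was at 282.6, 250.4 and 221.0 FPKM against 210.9, 176.1 and 201.5. Its change of -0.35 ± 0.10 was as deep as that of Agrn, its mock libraries were more widely spread, and its adjusted p was 0.0602. Sparc, a collagen-binding matricellular protein, was the most abundant member by far, at 2528, 2598 and 2529 FPKM in mock and 2623, 2644 and 2578 in quinpirole libraries. Its groups overlapped, with a log2 fold change of 0.04 ± 0.04 (adjusted p = 0.583).

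Sparc held a larger share of the members' summed level after quinpirole. It made up 56.7%, 59.0% and 59.3% of the summed FPKM of the 61 genes in the mock libraries and 62.3%, 64.5% and 62.1% in the quinpirole libraries. Without Sparc, the sum was 1931, 1807 and 1737 FPKM in mock and 1588, 1454 and 1572 in quinpirole libraries. The groups did not overlap in either measure.

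**Figure D2:**
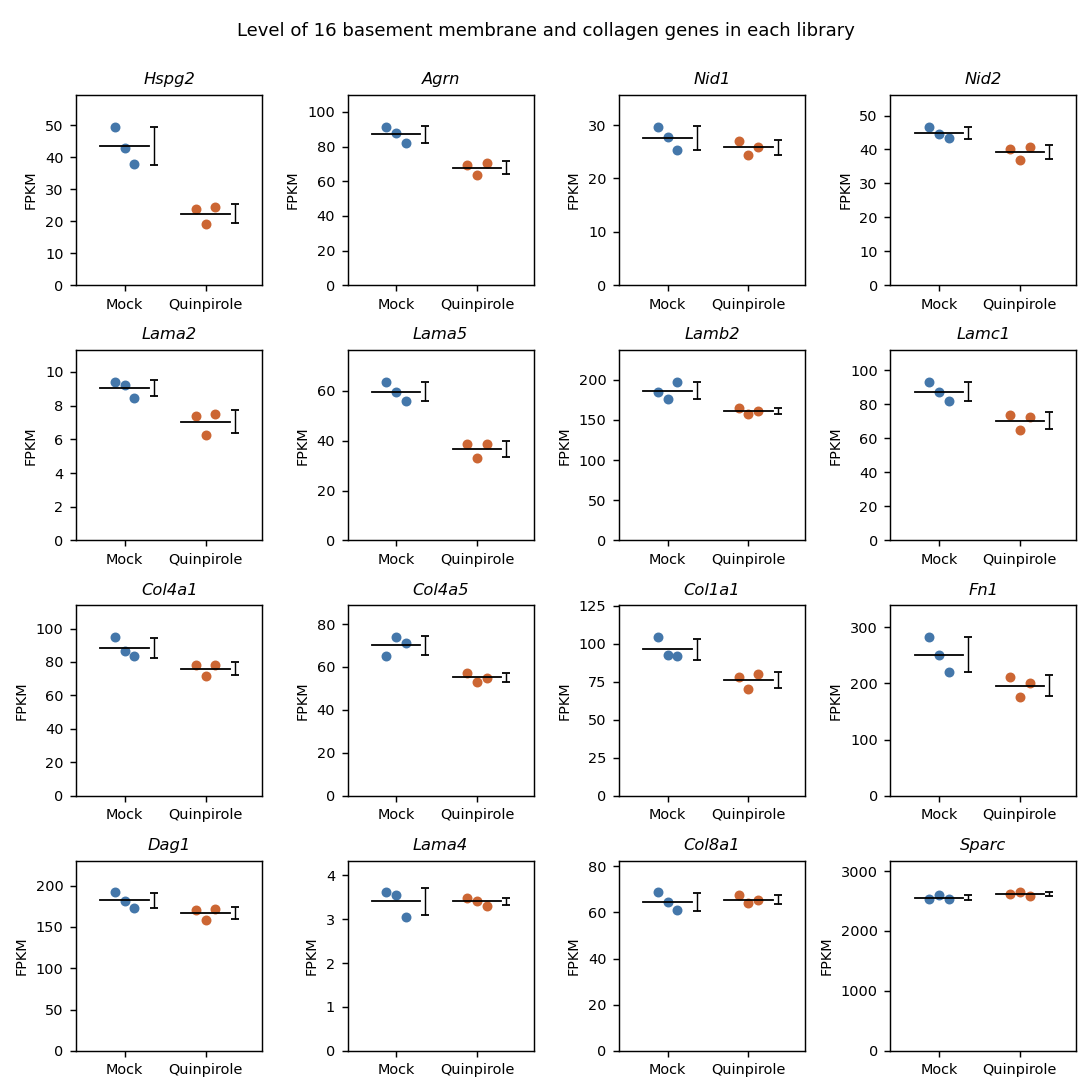
FPKM of 16 members in each library, with 3 mock (blue) and 3 quinpirole (orange) points per gene, a line at the mean and a bar of 1 SD on either side. Each axis starts at 0. Hspg2 and Lama5 show the widest gap between groups, while Sparc, Col8a1 and Lama4 overlap.

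Type IV collagen, the network of every basement membrane, has 6 chains whose genes lie in 3 head-to-head pairs. In these libraries Col4a1 and Col4a2, the common vascular chains, and Col4a5 and Col4a6 were well above Col4a3 and Col4a4. All 6 genes had every quinpirole library below every mock library, and 2 of the 6 passed the threshold. Col4a5 (chrX:141475385-141689234) was at 65.2, 73.9 and 71.1 FPKM in mock and 57.4, 53.1 and 55.0 in quinpirole libraries. It fell by 0.34 ± 0.05 on the log2 scale (SE, adjusted p = 0.0246). Col4a4 was at 2.93, 3.11 and 2.77 FPKM in mock and 2.43, 2.13 and 2.11 in quinpirole libraries, a fall of 0.29 ± 0.07 (adjusted p = 0.0481). Col4a5 was at 78.7% of the mock level and Col4a4 at 75.8%.

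The other 4 type IV chains were lower as well, without passing. Col4a1 was at 94.9, 86.8 and 83.5 FPKM in mock and 78.2, 71.5 and 78.1 in quinpirole libraries, with a log2 fold change of -0.22 ± 0.06 (SE, adjusted p = 0.0561). Col4a2 was at 45.2, 40.5 and 38.4 FPKM against 35.8, 32.8 and 37.2, with -0.22 ± 0.07 (adjusted p = 0.0775). Col4a6 was at 38.7, 37.5 and 34.7 FPKM against 33.5, 29.6 and 31.6, with -0.22 ± 0.06 (adjusted p = 0.0538). The 3 genes were close to each other in the size of the difference, at 85.2% to 85.9% of the mock level. Col4a3 was at 3.35, 3.67 and 3.05 FPKM against 2.76, 2.39 and 2.65, with -0.27 ± 0.08 (adjusted p = 0.0657).

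The starts of the paired genes lie close together. Col4a1 and Col4a2 on chromosome 8 overlap by 22 bases at their starts, Col4a4 and Col4a3 on chromosome 1 are 71 bases apart and Col4a6 and Col4a5 on chromosome X are 1308 bases apart, by GENCODE M21. The whole stretch between Col4a4 (leftward) and Col4a3 (rightward), chr1:82586850-82586920 on the plus strand, is shown as an example of such a short stretch. Its part in the change of either gene was not tested. It held none of the motifs searched above, so no letter is capitalized.
Col4a4-Col4a3: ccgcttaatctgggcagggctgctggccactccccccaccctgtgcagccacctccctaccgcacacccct
Within each pair the ratio of the levels overlapped between the groups. Col4a1 over Col4a2 was 2.14 ± 0.04 in mock and 2.16 ± 0.05 in quinpirole libraries (SD, n = 3), Col4a3 over Col4a4 was 1.14 ± 0.04 and 1.17 ± 0.07, and Col4a5 over Col4a6 was 1.90 ± 0.19 and 1.75 ± 0.04.

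Type VIII collagen, a short-chain network collagen of vessels and cornea, differed between its chains. Col8a1 was at 68.7, 64.3 and 60.9 FPKM in mock and 67.6, 64.0 and 65.2 in quinpirole libraries, which overlapped (log2 fold change 0.02 ± 0.05, adjusted p = 0.796). Col8a2 ranged from 17.7 to 18.3 FPKM in mock and from 15.8 to 16.3 in quinpirole libraries, with groups apart and an adjusted p of 0.0531.

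The fibrillar collagens, the rod-like collagens of connective tissue and of the fibrils around larger vessels, had 4 genes that fell among 9 tested. Col1a1, the main chain of type I collagen, was at 104.4, 92.9 and 92.1 FPKM in mock and 77.8, 70.0 and 80.4 in quinpirole libraries. It fell by 0.34 ± 0.07 on the log2 scale (SE, adjusted p = 0.0298), with groups apart. Col5a1, which starts fibrils of type I collagen, was at 28.2, 26.8 and 25.6 FPKM against 21.7, 18.5 and 22.2, a fall of 0.36 ± 0.07 (adjusted p = 0.0322). Col11a1, its cartilage relative, was at 28.0, 26.9 and 24.4 FPKM against 22.3, 20.2 and 22.5, a fall of 0.27 ± 0.06 (adjusted p = 0.0415). These 3 genes were at 77.4% to 82.0% of the mock level. Col5a3 was at 29.5, 26.9 and 26.9 FPKM against 23.1, 23.2 and 25.0, a fall of 0.21 ± 0.05 (adjusted p = 0.0480).

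Partner chains of the same fibrils moved less. Col5a2, the most abundant collagen transcript, was at 155.9, 143.4 and 137.7 FPKM in mock and 141.4, 135.3 and 137.0 in quinpirole libraries, with overlapping groups (log2 fold change -0.08 ± 0.05, adjusted p = 0.334). Col1a2 overlapped as well, between 19.8 and 22.6 FPKM in mock and between 18.6 and 20.2 in quinpirole libraries (adjusted p = 0.248). Of the remaining fibrillar genes, Col3a1 and Col27a1 were lower in every quinpirole library without passing (adjusted p = 0.0852 and 0.0612) and Col2a1 overlapped.

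Col12a1 encodes a fibril-associated collagen of tendon and other connective tissue, and had the largest fall of the collagens past the threshold on the log2(FPKM + 1) scale without correction. After the length correction its fold change of -0.21 was smaller than those of Col1a1 and Col4a5, both -0.30. It was at 34.3, 30.9 and 27.4 FPKM in mock and 23.1, 21.2 and 25.0 in quinpirole libraries. With groups apart, it fell by 0.40 ± 0.09 on the log2 scale (SE, adjusted p = 0.0382). The 5 other tested fibril-associated collagens did not pass. Among them Col14a1 and Col22a1 were lower in every quinpirole library, and Col9a3 was higher in every quinpirole library by 0.10 ± 0.05 (adjusted p = 0.176). Col18a1, the multiplexin of basement membranes and the source of endostatin, ranged from 41.4 to 45.4 FPKM in mock and from 37.3 to 38.6 in quinpirole libraries (adjusted p = 0.0536). None of Col6a1, Col6a2, Col26a1 and Col23a1 had groups apart, and their log2 fold changes lay between -0.12 and 0.12.

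**Figure D3:**
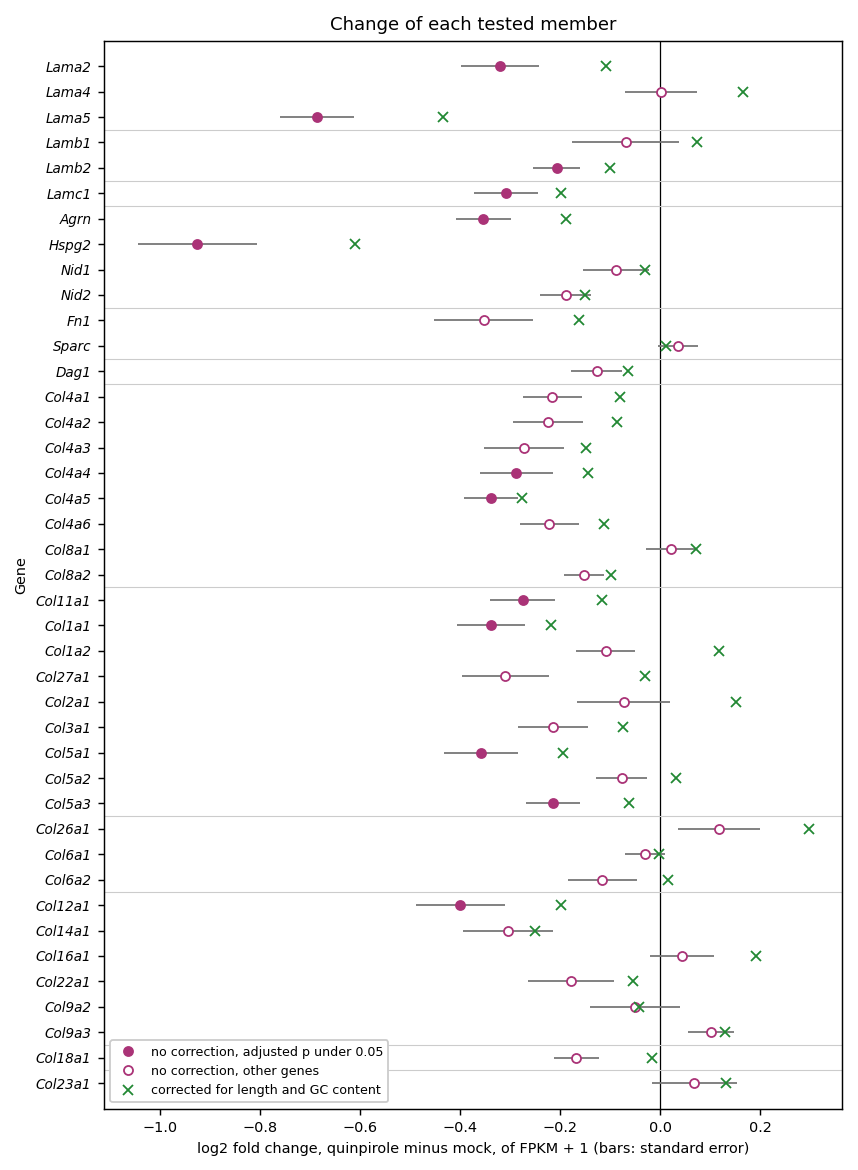
Log2 fold change of FPKM + 1 (quinpirole minus mock, with 1 SE as the bar) of 41 tested members in order of role, filled where the adjusted p was under 0.05, with crosses for the value after correction for gene length and GC content. Most circles lie left of 0, down to -0.93 for Hspg2, and most crosses lie to the right of their circle.

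The balance of partner chains was compared in 12 pairs, as ratios of FPKM within each library. In 7 pairs the groups overlapped, and in 5 they did not. No such share was computed for other pairs of genes. Among single genes, 16.9% of all tested genes were apart below and 20% apart above. Lama5 over Lamb2 was 0.344, 0.337 and 0.284 in mock and 0.236, 0.210 and 0.240 in quinpirole libraries. Col1a1 over Col1a2 was 4.61, 4.45 and 4.66 against 3.86, 3.76 and 4.11. These ratios follow from the single-gene changes given above, as 1 chain of each pair fell more than its partner, and are no separate result. In the same way Col5a2 over Col5a1 rose from 5.42 ± 0.09 to 6.67 ± 0.59 (SD, n = 3) and Col8a1 over Col8a2 from 3.60 ± 0.27 to 4.08 ± 0.07. Nid2 over Nid1 was barely apart, at 1.57, 1.61 and 1.71 in mock and 1.48, 1.51 and 1.57 in quinpirole libraries. For 3 libraries against 3 the smallest two-sided exact permutation p is 0.1, so these ratios are given as values only.

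**Figure D4:**
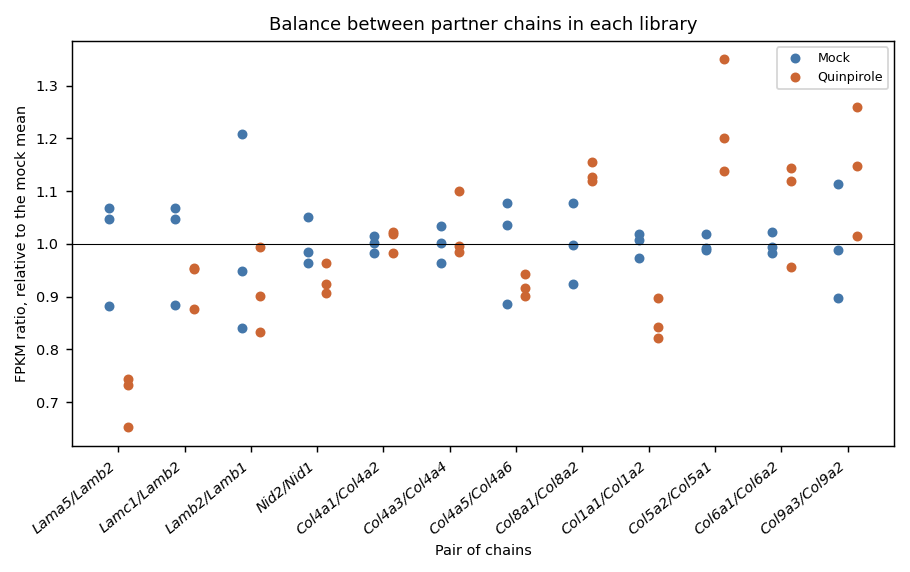
FPKM ratio of 12 pairs of partner chains in each library, divided by the mean ratio of the mock libraries, with mock in blue and quinpirole in orange. Lama5/Lamb2 and Col1a1/Col1a2 lie lower and Col5a2/Col5a1 higher in every quinpirole library, while the 3 type IV pairs overlap.

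Matrix genes are long, and in these libraries long genes were lower after quinpirole in general. The median exonic length of the tested members was 8107.5 bases, and 4521 bases over all tested genes, and their median GC content was 54.8% against 49.9%. The log2 fold change ran against exonic length with a Spearman rho of -0.47 over 12223 genes with a length, and -0.47 over the 42 members. These genes share the same 6 libraries and are no independent replicates. Among the 2445 longest genes (at least 7767 bases) 16.2% fell, and 9 of the 24 members in that class fell, with a median log2 fold change of -0.25 beside -0.11 for the whole class.

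After each library was corrected for a smooth trend with gene length, 6 of the 42 members fell (2.07% of all tested genes), namely Hspg2, Lama5, Agrn, Col4a5, Col1a1 and Lamc1, and the members' median was -0.13. After correction for length and GC content 4 fell (1.19% of all tested genes), Hspg2 by 0.61 (adjusted p = 0.0341), Lama5 by 0.43 (0.0242), Col4a5 by 0.28 (0.0474) and Agrn by 0.19 (0.0474) on the log2 scale, and the median was -0.07. No member rose under either correction. The number of members with a log2 fold change below 0 went from 34 to 30 after the length correction and to 29 after both. Before correction 46.2% of all tested genes were below 0, and that share was not computed after either correction. Lamb1, Col5a2, Col1a2 and Col2a1 were above 0 after either correction, at 0.07, 0.03, 0.12 and 0.15 after both, and Col6a2 was at 0.02 after both. A true change that follows length would be removed as well, and the part of length and GC content in these results was not tested.

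**Figure D5:**
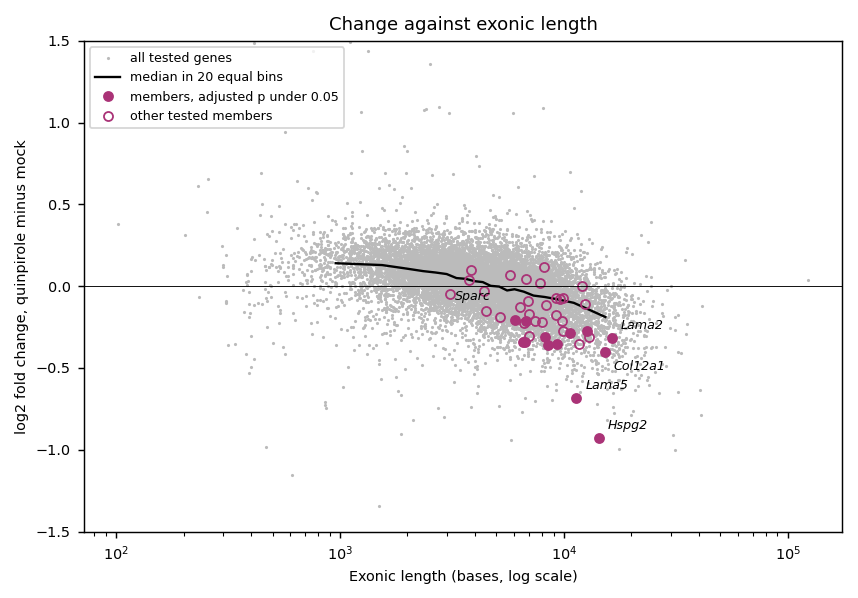
Log2 fold change (quinpirole minus mock) of all tested genes (grey) against exonic length in bases on a log scale, with the median in 20 equal bins (line) and 41 tested members (purple, filled where the adjusted p was under 0.05). The line falls with length, and Hspg2 and Lama5 lie far below it. Many members lie at its long end, but some, such as Sparc at 3788 bases, do not. Of all tested genes, 4 fall outside the plotted range.

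Partners of the members were read from 5 lists of 137 genes, of which 110 were tested, 5 rose and 5 fell. These shares are no larger than those over all tested genes (5.74% rose and 5.18% fell), and the genes named next are given as single genes. Of 19 tested integrins and other laminin and collagen receptors, Ddr2, a receptor for fibrillar collagen, fell by 0.37 ± 0.07 on the log2 scale (SE, adjusted p = 0.0277) from 16.8 ± 1.36 to 12.8 ± 0.74 FPKM (SD, n = 3). No integrin passed the threshold. Of 21 tested genes of the dystroglycan complex and its glycosylation, Utrn, the cytoskeletal linker utrophin, fell from 16.9 ± 1.37 to 12.1 ± 1.22 FPKM (adjusted p = 0.0268) and Dtna, encoding dystrobrevin alpha, from 22.7 ± 0.81 to 19.3 ± 0.60 (adjusted p = 0.0303). The medians of these lists were -0.04 and 0.04, near that of all tested genes.

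Of 26 tested genes that fold, modify and cross-link collagen, P3h4, a partner of collagen hydroxylases, rose from 31.0 ± 0.56 to 36.8 ± 1.10 FPKM (adjusted p = 0.0246). Pcolce2, an enhancer of procollagen cleavage, rose from 1.57 ± 0.16 to 2.30 ± 0.27 (adjusted p = 0.0458), and Pxdn, the peroxidase that cross-links type IV collagen, fell from 15.4 ± 0.66 to 12.9 ± 0.94 (adjusted p = 0.0499). Of 16 tested matrix proteases and inhibitors, Timp1 and Timp4, both inhibitors of metalloproteinases, passed and rose. Timp1 was at 15.6, 17.1 and 15.3 FPKM in mock and 20.3, 22.8 and 22.4 in quinpirole libraries, a log2 fold change of 0.43 ± 0.06 (adjusted p = 0.0225). Timp4 went from 26.9 ± 0.60 to 31.2 ± 1.24 FPKM (adjusted p = 0.0329). Timp2 and Timp3 of the same list did not pass, with log2 fold changes of 0.05 and -0.05. Of 28 other brain matrix genes, Bgn, the small proteoglycan biglycan, rose from 115.2 ± 4.99 to 132.6 ± 3.48 FPKM (adjusted p = 0.0336) and Frem2, a basement membrane protein, fell from 2.54 ± 0.22 to 1.59 ± 0.20 (adjusted p = 0.0286). After correction for length and GC content Ddr2 (adjusted p = 0.0474) and Bgn (0.0428) still passed, the other 8 did not, and Gpc1, a glypican, passed with a log2 fold change of 0.19 (0.0478).

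The cell content of the libraries was described with marker lists. All 10 astrocyte markers were above the tested level of 1 FPKM. They summed to 1504 to 1668 FPKM in mock and 1493 to 1522 in quinpirole libraries, mostly from Gfap, Aldoc, Slc1a3, Aldh1l1 and Atp1b2. Of the 10, 2 fell, Slc1a2 and Atp1b2, the gene of the capture antigen. Slc1a2 was low, at 7.47 to 8.55 FPKM in mock and 5.15 to 6.37 in quinpirole libraries. Endothelial markers summed to 53.7 to 54.9 and 52.2 to 54.5 FPKM, mostly from Slco1a4, with Kdr at a mean of 5.38 FPKM over the 6 libraries, Flt1 at 0.887 to 1.34, Cdh5 at 0.503 to 0.908 and Pecam1, Tie1 and Tek at or near 0. Among 8 pericyte markers Pdgfrb alone was tested, and it fell, from between 25.0 and 27.2 to between 20.7 and 21.6 FPKM, while Rgs5, Kcnj8, Abcc9 and Higd1b were near 0. Smooth muscle markers summed to 5532 to 5922 and 5915 to 6334 FPKM, from Acta2, Tagln, Myl9 and Cnn1, with Des near 0 and Myh11 under 1 FPKM. Fibroblast and meningeal markers summed to 235.7 to 238.4 and 236.6 to 246.5 FPKM, led by Fmod, with Lum near 0.

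The summed level of 3 lists of other cells was higher in every quinpirole library, though not of each gene in them. Microglial markers summed to 714 to 758 FPKM in mock and 759 to 829 in quinpirole libraries, oligodendrocyte lineage markers to 471 to 482 and 494 to 514, and neuronal markers to 71.1 to 76.4 and 83.1 to 89.6, with 1 gene of each list called higher. Within these lists Csf1r and Cx3cr1 were lower in every quinpirole library, Csf1r at 54.0 to 57.5 against 48.3 to 51.4 FPKM and Cx3cr1 at 33.9 to 37.7 against 32.5 to 33.5, and neither passed the threshold. The oligodendrocyte lineage sum came mostly from Olig1, Cnp and Olig2, with means of 277, 161 and 47.0 FPKM, while Mog, Mag and Mobp were near 0. The neuronal sum came mostly from Stmn2 and Tubb3, with means of 59.1 and 19.5 FPKM, while Snap25, Rbfox3, Gad1 and Slc17a7 were near 0. Ependymal markers (136.9 to 151.8 and 137.8 to 146.6 FPKM) and choroid plexus markers (39.2 to 43.8 and 40.2 to 43.2) overlapped. The part of these cells in the members' changes was not tested. The markers named here were chosen after their values were seen.

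The 19 members under a mean of 1 FPKM add little to the totals. They were Col9a1, the highest at a mean of 0.933 FPKM, Col7a1, Col11a2, Col15a1, Col20a1, Col6a3, Lama1, Lamc3, Lama3, Col17a1, Col10a1, Col24a1, Lamb3, Col6a5, Col6a4, Col28a1, Col19a1, Col25a1 and Col6a6. Their mean was lower after quinpirole in 13 of the 19, and in Col7a1 and Col6a3 every quinpirole library was below every mock library. Col27a1, just above the filter at a mean of 1.06 FPKM, was the lowest tested member. In 5 of the 19, at least 1 library was listed at 0. Col4a3bp, left aside above, was at 9.96, 9.36 and 8.56 FPKM in mock and 8.01, 7.86 and 8.71 in quinpirole libraries and did not pass (adjusted p = 0.156).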

How the data were processed

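The authors isolated poly(A) RNA, trimmed adaptors, discarded reads of low quality and mapped the paired-end reads to GRCm38 with TopHat2 (per the submitters' processing notes), keeping perfect matches and reads with 1 mismatch. The deposited values are FPKM per gene and library. The program that computed them, its annotation and the TopHat2 version were not given in the sources used here.

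Symbols were assigned to 17090 of 17193 genes, and positions, exonic lengths and GC content came from GENCODE M21. Depth, read from the steps of the lowest values, was about 22300000 to 27500000 fragments per library, and the tested member with the fewest had about 120 fragments in its lowest library. Between 59.3% and 70.8% of the low values behind the depth estimate lay within 0.1 of a whole fragment, so no count test was run. FPKM sums were apart between the groups, at 401769, 402354 and 413730 in mock and 426492, 437164 and 425244 in quinpirole libraries. So were the genes listed at 0, with 1181, 1214 and 1235 in mock and 1314, 1354 and 1476 in quinpirole libraries. The part of these differences in the results was not tested. Libraries of 1 group differed by 2.33 to 3.76 times the chance value of a chi-square over 680 genes, and no pair agreed within sampling noise.

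Genes with a mean of at least 1 FPKM were tested on log2(FPKM + 1) with limma 3.58.1 in R 4.3.3 (lmFit, eBayes with trend, two-sided, Benjamini-Hochberg over all tested genes, threshold 0.05). Fold changes are on that scale, which understates changes of low genes. For the length and GC corrections, loess fits (span 0.3) of each library's deviation from the gene mean were subtracted, the correction for both having been chosen after seeing the data. Ratios, counts and figures used Python 3.11.15, numpy 2.4.6, pandas 2.3.3 and matplotlib 3.10.9. The fit and the length correction were tested on simulated data.

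Values in every library are given for each tested member past the threshold, the 10 of highest mean, every tested laminin chain, type IV collagen chain and non-collagen member, and the 5 of largest fold change, and partner genes are named where past the threshold. The values of 1 tested member are counted in the totals but not reported here. The members and lists were chosen with earlier results of these data known.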

Additional observations from a re-analysis of the deposited data

How the results depend on the processing

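The members' median log2 fold change stayed below 0 and no member passed as higher under any alternative tried, but the number called varied. Over all genes, 1339 passed the threshold, and 633 without a filter on low values, 783 after quantile normalization (283 higher, 500 lower), 714 by eBayes without trend (293 higher, 421 lower), 509 after the length correction and 317 after the length and GC correction. More passed with a minimum mean of 5 FPKM (1428 of 9014 tested) and by eBayes with robust estimation (1549), and 1292 after median ratio scaling. Leaving out each library in turn gave 3 to 1215. Of the members, 13 passed, and 4 without a filter (of 61 tested), 7 without trend, 6 after the length correction and 4 after the length and GC correction, with 0 to 13 when 1 library was left out. The count was 17 with a minimum mean of 5 FPKM (of 31 tested), 17 with robust estimation and 14 after median ratio scaling. Of the partner lists, 10 passed, 3 after either correction and 0 to 13 when 1 library was left out. The members' median was -0.20, against -0.12 without a filter, -0.13 after the length correction and -0.0701 after the length and GC correction. The groups were apart below in 26 members, against 16.9% of all tested genes. After the length and GC correction they were apart below in 16 members, and the share over all tested genes was not computed for it. Fewer samples or a changed number of genes tested is part of the construction of the omissions and of the 2 runs with a changed filter. For the others the cause was not tested.

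Replicate numbers are shared by different libraries and did not pair them: deviations of same-numbered libraries correlated at r = 0.03, -0.07 and -0.10 over genes. With the replicate block 2 genes, 0 members and 0 partner genes passed in limma. With the block and the length correction 0, 0 and 0 passed. In these 2 fits 24 and 20 members had an unadjusted p under 0.05, as did 3308 of 12255 and 2723 of 12223 tested genes. The members' median was -0.20 and -0.13.

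Values near 0 changed sign. Col5a2 stood at 0.0118 after the length correction, with or without the block, and 0.0319 with GC. Lamb1 stood at 0.0238 and 0.0728 likewise, and between -0.154 and 0.0233 when 1 library was left out. Quantile normalization gave -0.0387 for Col8a1 and -0.0624 for Sparc, and median ratio scaling gave -0.00516 for Lama4. Leaving out 1 library gave -0.0196 to 0.0662 for Col8a1 and -0.0583 to 0.0353 for Lama4. Of 455 values of named members under alternatives, 308 kept side and direction, 123 lost the threshold, 10 gained it and 14 changed sign. Depth limits the members under 1 FPKM.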
